A study of Mus musculus with 10 samples.

Results

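Hepatic mRNA of periplakin (*Ppl*), of other plakins, of desmosome genes and of the hepatocyte keratins was measured in *db/db* mouse livers that received an adeno-associated virus of serotype 8 (AAV8). The set held 10 genes of the 15126 listed, namely *Ppl*, *Evpl*, *Dsp*, *Plec*, *Jup*, *Pkp2*, *Dsg2*, *Dsc2*, *Krt8* and *Krt18*. Of these, 9 passed the filter that kept 11027 genes, an average of 1 CPM or more over all livers of the series, where CPM is reads scaled to the total of the library. *Ppl* was selected on its measured CPM in a comparison of these libraries that is not given here, and the other 9 genes were chosen with earlier results of these livers known, so all values are a description with no test. Levels are given for the 5 *db/db* AAV8-Control livers, which received AAV8 for eGFP and were taken 5 weeks after the vector from mice of 10 weeks of age. The *db/db* background is an obese and diabetic strain without a working long leptin receptor. The promoter of the vector was not given in the sources used here, and mice without a vector were not analysed here.

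Plakins are large linker proteins that tie intermediate filaments to junctions and to other parts of the cytoskeleton. In a desmosome, the cadherins desmoglein and desmocollin bridge neighbouring cells, the armadillo proteins plakoglobin and plakophilin bind their tails, and desmoplakin joins this plaque to keratin filaments. Hepatocytes build their filaments from keratin 8 and keratin 18, which pair with each other, and these filaments are known for their part in the resistance of the liver to injury. Periplakin was described in the cornified envelope of the epidermis, with envoplakin as its partner, and it also binds keratin 8.

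The AAV8-Control libraries held from 19499795 to 35498596 reads counted on genes, so that 1 read was worth 0.0282 to 0.0513 CPM. The labels name liver as the source but also primary hepatocytes as the cell type, and their protocols describe cultured hepatocytes given adenovirus. Hepatocyte markers, 8 of 8 listed, made up most of the marker reads, with *Alb* at 97164 CPM. Markers of other liver cells were present too, with 159 CPM for the stellate cell gene *Dcn*, 56.0 CPM for the Kupffer cell gene *Clec4f* and 37.6 CPM for the sinusoidal endothelial gene *Stab2* on average. In such bulk RNA, fewer cells of a type and less RNA per cell cannot be told apart. The libraries differed from each other by more than the counting of reads, and the labels do not say whether replicates are separate animals.

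*Dsp* and *Jup* of the desmosome and the keratin genes *Krt8* and *Krt18* had promoters in the RefSeq table of GRCm38.p6, which are shown because pairs among these genes were correlated from liver to liver. For the other 6 genes no entry was found. Each line gives the 110 bases, 5′ to 3′, that end just before the start of the gene, taken as the more upstream of its RefSeq and GENCODE M21 starts. Capitals mark GGGCGG on either strand, the core of the GC box.
*Dsp*, chr13:38151184-38151293, forward strand: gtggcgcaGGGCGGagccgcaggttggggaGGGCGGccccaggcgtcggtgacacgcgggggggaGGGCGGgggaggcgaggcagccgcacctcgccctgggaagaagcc
*Jup*, chr11:100397791-100397900, reverse strand: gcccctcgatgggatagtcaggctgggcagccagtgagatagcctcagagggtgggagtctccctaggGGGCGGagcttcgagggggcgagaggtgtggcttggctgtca
*Krt8*, chr15:102004483-102004592, reverse strand: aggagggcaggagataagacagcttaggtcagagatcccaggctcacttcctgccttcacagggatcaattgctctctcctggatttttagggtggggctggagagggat
*Krt18*, chr15:102028070-102028179, forward strand: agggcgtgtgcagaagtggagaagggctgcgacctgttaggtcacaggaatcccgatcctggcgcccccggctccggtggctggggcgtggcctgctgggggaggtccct
The GGGCGG sequence stood at 3 places in the *Dsp* window and at 1 in the *Jup* window, and it was not found in the keratin windows. Of all 32851 RefSeq promoters, 25.7% held it in the 110 bases before the RefSeq start. The *Krt8* and *Krt18* windows end 140 and 36 bases further upstream than that start. For these genes the shares over all promoters are thus of windows placed otherwise, and the bases between the RefSeq and GENCODE starts are not described here. The TATAAA motif of the TATA box, also searched on both strands, was found in none of the 4 windows, and 5.94% of all promoters held it. The same was so for CCAAT, held by 20.2% of all promoters. The AP-1 motif TGANTCA was not found either and was held by 3.08%. The G and C content was 79.1% for *Dsp*, 65.5% for *Jup*, 53.6% for *Krt8* and 69.1% for *Krt18*. A match is a description of the letters and not of a bound site.

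*Ppl* (ENSMUSG00000039457, GRCm38 chromosome 16, 5086291 to 5132421, reverse strand) was at 30.3, 29.9, 24.8, 27.1 and 24.8 CPM in AAV8-Control replicates 1 to 5. Replicates 1 and 2 were the highest and replicates 3 and 5 the lowest. The mean was 27.4 ± 2.66 CPM (SD, n = 5) from 513 to 879 reads a library. The coefficient of variation between livers was 9.71%, where the counting of reads alone would give 3.92%. Over all 11027 genes past the filter the median coefficient of variation was 10.5%, so *Ppl* varied about as much as other genes did.

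*Evpl*, for envoplakin (ENSMUSG00000034282, chromosome 11, 116220559 to 116238077, reverse strand), was close to the limit of detection and did not pass the filter. It was at 1.28, 0.530, 0.592, 0.328 and 0.773 CPM in replicates 1 to 5, from 9 to 25 reads a library. Replicate 1 was the highest and replicate 4 the lowest, with a mean of 0.701 ± 0.362 CPM (SD, n = 5). Its coefficient of variation was 51.6%, and the counting of so few reads alone would give 26.1%. The ratio of *Ppl* to *Evpl* in CPM per kilobase of exon was 21.9, 52.3, 38.8, 76.5 and 29.7, with a mean of 43.8 ± 21.5 (SD, n = 5). *Ppl* thus exceeded its epidermal partner in every control liver, and the few reads of *Evpl* make the size of the ratio imprecise.

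*Plec* codes for plectin, a plakin that links intermediate filaments to actin, microtubules and cell attachments. This gene (ENSMUSG00000022565, chromosome 15, 76170974 to 76232574, reverse strand) was at 73.6, 57.4, 61.4, 54.6 and 60.3 CPM, with a mean of 61.4 ± 7.29 CPM (SD, n = 5). Replicate 1 stood above the other 4 livers. *Dsp* codes for desmoplakin, the plakin of the desmosome (ENSMUSG00000054889, chromosome 13, 38151294 to 38198577, forward strand). It was at 48.2, 41.3, 46.7, 36.2 and 45.2 CPM, with a mean of 43.5 ± 4.82 CPM (SD, n = 5). Replicates 1 and 3 were the highest and replicate 4 the lowest. The coefficients of variation of *Plec* and *Dsp* were 11.9% and 11.1%, against 2.62% and 3.12% from counting alone.

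**Figure D1:**
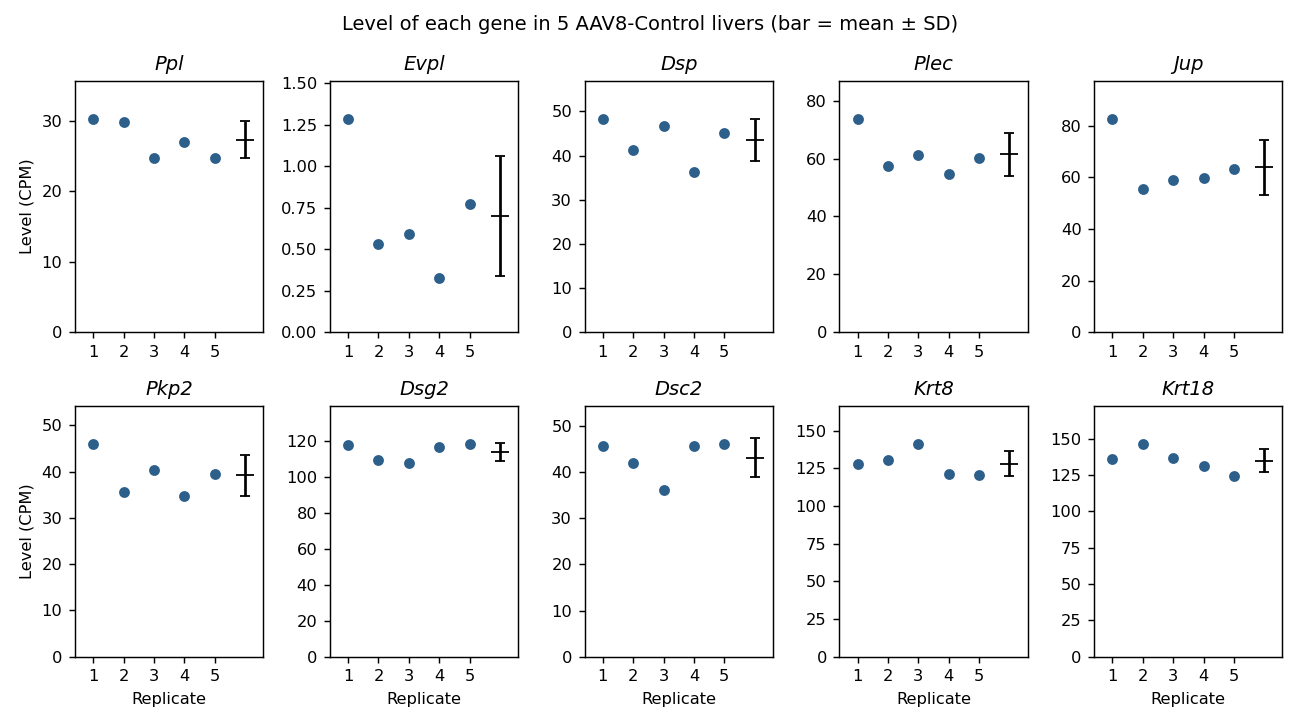
Level in CPM (vertical axis, from 0) of each of the 10 genes in each of 5 AAV8-Control livers, by replicate number (horizontal axis). Points are livers and the bar at the right of each panel gives the mean ± SD. *Jup* has its highest liver at 82.5 CPM and the others at 55.4 to 63.1 CPM, while *Dsg2* stays between 107.9 and 118.5 CPM.

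The armadillo proteins of the plaque are plakoglobin, coded by *Jup*, and plakophilin 2, coded by *Pkp2*. *Jup* (ENSMUSG00000001552, chromosome 11, 100368958 to 100397763, reverse strand) was at 82.5, 55.4, 59.0, 59.7 and 63.1 CPM, with a mean of 64.0 ± 10.7 CPM (SD, n = 5). Replicate 1 was well above the other 4 livers. Its coefficient of variation of 16.8% was the largest of the 9 members past the filter, and 75.8% of all genes past the filter had a smaller one. *Pkp2* (ENSMUSG00000041957, chromosome 16, 16213318 to 16272712, forward strand) was at 45.9, 35.6, 40.2, 34.7 and 39.4 CPM, with a mean of 39.2 ± 4.48 CPM (SD, n = 5). Replicate 1 was again the highest.

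The desmosomal cadherins of simple epithelia are desmoglein 2 and desmocollin 2, and their genes *Dsg2* and *Dsc2* are on chromosome 18. *Dsg2* (ENSMUSG00000044393, 20558074 to 20604521, forward strand) was at 118.1, 109.5, 107.9, 116.6 and 118.5 CPM, with a mean of 114 ± 5.03 CPM (SD, n = 5). It was the steadiest member, with a coefficient of variation of 4.41%, and 7.32% of all genes past the filter had a smaller one. *Dsc2* (ENSMUSG00000024331, 20030633 to 20059554, reverse strand) was at 45.5, 41.8, 36.2, 45.6 and 46.1 CPM, with a mean of 43.1 ± 4.19 CPM (SD, n = 5). For both cadherins, replicates 1, 4 and 5 were the higher livers and replicate 3 the lowest.

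*Krt8* and *Krt18*, the type II and type I keratins of hepatocytes, lie 23697 bases apart on chromosome 15. *Krt8* (ENSMUSG00000049382, 101996698 to 102004482, reverse strand) was at 127.7, 130.2, 141.1, 120.9 and 120.6 CPM, with a mean of 128 ± 8.40 CPM (SD, n = 5). *Krt18* (ENSMUSG00000023043, 102028180 to 102032027, forward strand) was at 135.8, 146.4, 136.6, 131.5 and 124.6 CPM, with a mean of 135 ± 7.98 CPM (SD, n = 5). Replicates 4 and 5 were the lowest for both, in contrast to the cadherins. A processed pseudogene, *Krt8-ps*, is annotated, and reads shared with it would be left out by the counting of uniquely aligned reads. The ratio of *Krt8* to *Krt18* in CPM per kilobase was 0.690, 0.653, 0.758, 0.675 and 0.711, with a mean of 0.697 ± 0.040 (SD, n = 5). *Krt18* was thus above *Krt8* per kilobase in all 5 livers.

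Replicate 1 had the highest level of 6 of the 10 members, namely all 4 plakins and both armadillo genes, but of no cadherin or keratin. Of all 11027 genes past the filter, 37.8% were highest in this replicate. This library had the fewest reads of the 5, and its TMM factor, a scaling by the trimmed mean of M-values, was 1.04 against 0.965 to 0.996 in the others. With TMM scaling replicate 1 stayed the highest for *Evpl*, *Plec*, *Jup* and *Pkp2*, which is 4 of the 10 members against 23.8% of all genes past the filter. *Ppl* was then highest in replicate 2 and *Dsp* in replicate 3. *Evpl*, counted among the 6 and the 4, did not itself pass the filter that these shares are taken over. Endothelial markers were also mostly highest in replicate 1 in the deposited CPM. Their 7 genes summed to 261, 172, 221, 119 and 167 CPM in replicates 1 to 5. Of these genes, 6 were highest in replicate 1 and 6 lowest in replicate 4, as *Dsp*, *Plec* and *Pkp2* were. The share of all genes lowest in replicate 4 was not computed, nor were these counts taken with TMM scaling. The sinusoidal gene *Stab2*, at 54.3, 31.7, 44.96, 22.3 and 34.5 CPM, put the 5 livers in the same order as *Dsp*, *Plec* and *Pkp2* did in the deposited CPM. *Ptprb* and *Kdr* gave this order too, but *Cdh5*, *Pecam1*, *Vwf* and *Lyve1* did not. *Lyve1* was at 8.15 CPM in replicate 1 and highest in replicate 3, at 14.6 CPM. With TMM scaling *Dsp* did not keep this order, as replicate 3 was then its highest. The part of endothelial cells in the level of the members was not tested.

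Per kilobase of exon in the 5 AAV8-Control livers, *Krt18* had the highest level at 93.9 ± 5.55 CPM per kilobase (SD, n = 5), followed by *Krt8* at 65.4 ± 4.29, and the ranges of these keratins did not overlap. *Dsg2* came next at 13.8 ± 0.609 CPM per kilobase, with every liver above the ranges of the members below it. *Jup* (9.94 ± 1.67), *Dsc2* (8.16 ± 0.795) and *Pkp2* (7.31 ± 0.836 CPM per kilobase) followed, each overlapping its neighbour. A gap separated them from the plakins *Dsp* (4.50 ± 0.499), *Ppl* (3.97 ± 0.386) and *Plec* (3.39 ± 0.402 CPM per kilobase), which overlapped their neighbours too. *Evpl* was last at 0.110 ± 0.0567 CPM per kilobase, below every other member in every liver. The length is that of all annotated exons of a gene, so a gene with many alternative exons, such as *Plec* at 18113 bases, is placed low on this scale.

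**Figure D2:**
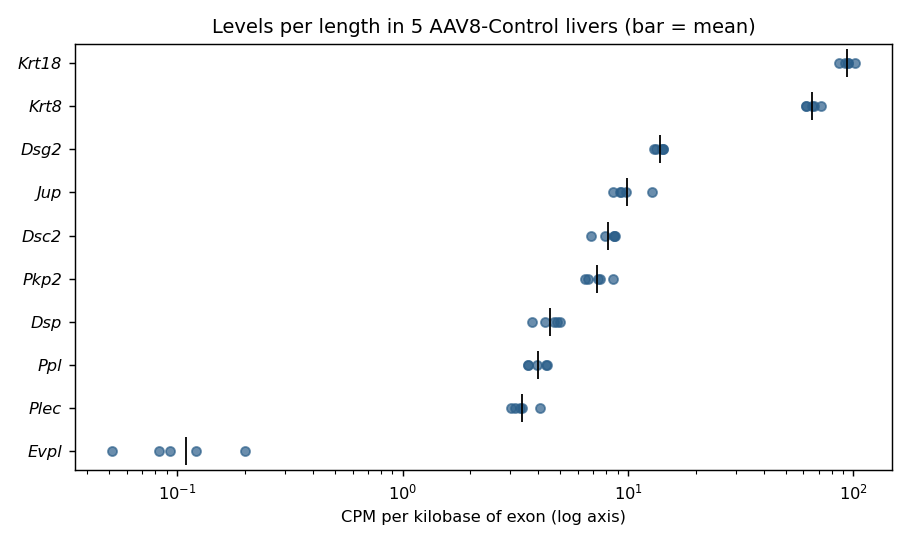
Level of each of the 10 genes in CPM per kilobase of exon (horizontal log axis), ordered by mean. Points are the 5 AAV8-Control livers and the black bar is their mean. The keratins are at 61.6 to 102 CPM per kilobase, *Dsg2* at 13.0 to 14.3, the plakins *Dsp*, *Ppl* and *Plec* at 3.01 to 4.99, and *Evpl* at 0.0514 to 0.201.

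Within the groups of the series, some pairs of members rose and fell together from liver to liver. Correlations are of deviations from the group mean on log2(CPM + 1) over all 10 livers of the series, with no p, and the points share library, depth and base composition. Such correlations were common among all genes past the filter, where 9.65% of 60791851 pairs had an r above 0.6 and 4.26% an r below -0.6, with a median of 0.091. For the 36 pairs of the 9 members past the filter these shares were 19.4% (7 pairs) and 11.1% (4 pairs), with a median of 0.28. The livers outside AAV8-Control entered them as deviations only. *Krt8* and *Krt18* had a Pearson r of 0.84 and a Spearman rho of 0.85, and r was 0.58 without the 2 livers farthest from the median of *Krt8*. Such livers were chosen by the level of the first gene over all 10 livers, before group means were removed. *Dsg2* and *Dsc2* had an r of 0.83 and a rho of 0.84, which was 0.94 without the farthest 2. Both pairs are partners in the cell, the keratins in one filament and the cadherins in one junction.

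The keratins and the cadherins moved in opposite directions. *Dsc2* with *Krt8* had an r of -0.89 and a rho of -0.96, and this r stayed between -0.94 and -0.86 when single livers were left out. *Dsg2* with *Krt18* had an r of -0.84 and a rho of -0.71, and the r was between -0.93 and -0.56 when single livers were left out. *Dsg2* with *Krt8* had an r of -0.82 (rho -0.84), and *Dsc2* with *Krt18* an r of -0.63 (rho -0.75). The keratin transcripts are short and the cadherin transcripts long, and the slope of a library's values on log2 exon length, relative to the mean of all libraries, ranged from -0.044 to -0.015 log2 units in AAV8-Control and from -0.028 to 0.11 in the other livers that entered these correlations. With each library's trend on length removed, a setting added after the data were seen, r was -0.85 for *Dsc2* with *Krt8*, -0.73 for *Dsg2* with *Krt8*, -0.71 for *Dsg2* with *Krt18* and -0.52 for *Dsc2* with *Krt18*.

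The plaque and plakin genes *Dsp*, *Plec*, *Jup* and *Pkp2* had positive correlations of varied size. *Plec* and *Jup* had an r of 0.81 (rho 0.83), and *Dsp* and *Pkp2* had an r of 0.79 (rho 0.75). The r of *Dsp* with *Plec* was 0.75 (rho 0.71), and with *Jup* it was 0.63 (rho 0.67), falling to 0.37 with TMM scaling. *Jup* with *Pkp2* (r 0.67, rho 0.39) rested on 2 livers, as r was 0.13 without them, and it was 0.34 without AAV8-Control replicate 1. *Plec* with *Pkp2* had the lowest r of the 6 pairs over all 10 livers, at 0.45, but its rho of 0.43 was above that of *Jup* with *Pkp2*. The r of *Plec* with *Pkp2* was 0.12 with TMM scaling and 0.82 without the farthest 2 livers.

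For *Ppl*, r with the other members ranged from -0.26 for *Krt8* to 0.49 for *Jup*, and these values depended on single livers and on the scaling. With *Jup* it ran from 0.12 to 0.83 when single livers were left out, and it was 0.22 with TMM scaling. Without the 2 livers farthest from the median of *Ppl*, r was 0.73 with *Plec*, 0.61 with *Dsg2* and 0.59 with *Dsp*, against 0.47, 0.42 and 0.08 over all 10 livers. These livers were chosen by level over both groups, so they need not be those farthest from the mean of their group. The r of *Ppl* with *Dsp* was -0.40 under TMM scaling. The r of *Ppl* with *Pkp2* turned from 0.12 to -0.22 with TMM scaling, and that with *Krt18* from -0.14 to 0.13 with the trend on length removed.

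**Figure D3:**
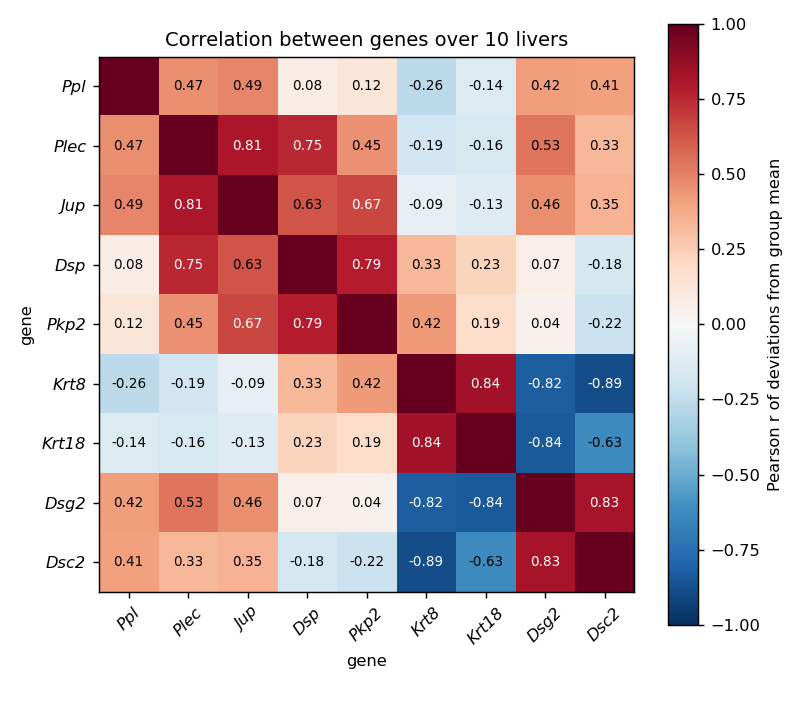
Pearson r between pairs of the 9 members past the filter, of deviations from the group mean on log2(CPM + 1) over 10 livers, with red for positive and blue for negative r. *Krt8* with *Krt18* (0.84) and *Dsg2* with *Dsc2* (0.83) are positive, and the keratins with the cadherins are negative, down to -0.89 for *Dsc2* with *Krt8*.

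The genes most like *Ppl* within the groups, of 11026 ranked by Pearson r over the 10 livers, were *Zeb2* (r 0.91, rho 0.87), *Ahnak* (r 0.89, rho 0.90), *Tnfrsf21* (r 0.89, rho 0.92), *Itsn1* (r 0.89, rho 0.88) and *Ctbp2* (r 0.87, rho 0.84). In AAV8-Control they averaged 9.94 ± 1.42, 13.2 ± 2.10, 4.82 ± 0.703, 71.9 ± 15.1 and 1.61 ± 0.485 CPM (SD, n = 5). All 5 were highest in replicate 1 or 2, as *Ppl* was, which follows in part from their choice by r over livers that include these. None of the members was among them, as *Jup* came closest at rank 1096 and *Krt8* was at rank 9404. They were picked as the highest of many correlations.

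The genes next to *Ppl* on chromosome 16 had an r with it from -0.50 to -0.011 over the 10 livers, so some were near 0. *Ubn1*, which codes for a chromatin protein, is on the forward strand and ends at 5086289, with 1 base between its 3′ end and that of *Ppl*. It was at 27.6, 22.5, 27.9, 27.2 and 29.8 CPM in AAV8-Control, close in level to *Ppl*, but its r with *Ppl* over the 10 livers was -0.014 (rho 0.0061) and -0.30 with the trend on length removed. Replicate 2, among the highest for *Ppl*, was the lowest for *Ubn1*. The library preparation is not stated to keep the strand, so a read from such an end cannot be assigned by strand. The other 5 neighbours, *Rogdi*, *Glyr1*, *Nagpa*, *AU021092* and *Alg1*, lie 36427 to 101199 bases away and had an r with *Ppl* of -0.058, -0.22, -0.50, -0.24 and -0.011. That of *Rogdi* turned to 0.13 with the trend on length removed.

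The levels of other junction and filament genes were read from 7 lists to place the members among them, with the 3 genes of highest mean in each list given. Of the other plakins and hemidesmosome genes, 9 of 10 named were listed and 5 passed the filter. *Dst*, for dystonin, a plakin of hemidesmosomes and of the cytoskeleton, was at 88.1 ± 8.24 CPM (SD, n = 5), *Macf1*, for another long plakin, at 58.5 ± 5.93 CPM, and *Cd151*, for a tetraspanin of the hemidesmosome, at 67.1 ± 1.70 CPM. Per kilobase, *Dst* and *Macf1* were at 2.14 ± 0.2001 and 1.86 ± 0.189 CPM per kilobase, both below *Ppl* and *Plec*. Of the other desmosome genes, 8 of 12 were listed and 4 passed. *Perp*, for a desmosomal membrane protein, was at 115 ± 5.07 CPM and *Pkp4*, for a plakophilin relative also found at adherens junctions, at 111 ± 7.39 CPM, whereas *Pkp3*, for plakophilin 3, was at 2.21 ± 0.345 CPM. *Pkp2* was thus the more abundant of these plakophilins 2 and 3.

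Of 27 other filament genes, 20 were listed and 13 passed. *Lmna*, for the nuclear lamins A and C, was at 37.1 ± 4.02 CPM (SD, n = 5), *Vim*, for the vimentin of mesenchymal cells, at 19.2 ± 4.03 CPM and *Lmnb2* at 8.86 ± 1.05 CPM. The whole list summed to 82.3 to 102 CPM a liver, less than either *Krt8* or *Krt18* alone. Adherens junction genes, 12 of 19 listed and 11 past the filter, were led by *Ctnnb1*, for β-catenin, at 192 ± 12.7 CPM, *Ctnna1*, for α-catenin, at 113 ± 2.62 CPM and *Cdh2*, for N-cadherin, at 71.3 ± 4.52 CPM.

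Tight junction genes, 26 of 29 listed and 20 past the filter, were led by *Cldn2*, for the pore-forming claudin 2, at 106 ± 8.06 CPM (SD, n = 5), *Cgnl1*, for paracingulin, at 83.4 ± 6.63 CPM and *F11r*, for a junctional adhesion molecule, at 73.5 ± 1.50 CPM. Of 12 gap junction genes, 11 were listed and 5 passed, with *Gjb1* and *Gjb2*, for the connexins of hepatocytes, at 787 ± 77.3 and 306 ± 31.9 CPM and *Gja1*, for connexin 43, at 4.58 ± 1.03 CPM. Of 20 periplakin partners and cornified envelope genes, 16 were listed and 10 passed. *S100a10*, for the partner of annexin A2, was at 199 ± 24.9 CPM, *Tgm2*, for a transglutaminase, at 115 ± 17.8 CPM and *Akt1*, for a kinase that periplakin binds, at 47.4 ± 3.40 CPM.

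Plakins, desmosomes and keratins are also found in cells other than hepatocytes, so their markers were read as summed CPM per AAV8-Control liver. Cholangiocyte markers, 9 of 9 listed, summed to 47.3 to 70.6 CPM, and the cholangiocyte keratin gene *Krt19* was at 1.81 ± 0.657 CPM (SD, n = 5). Mesothelial markers, 6 of 6, summed to 7.38 to 17.4 CPM. Of the 6 epidermal markers 4 were listed and summed to 1.28 to 1.85 CPM, and the basal keratinocyte genes *Krt14* and *Trp63* were each at 0 in 3 of the 5 livers and at most at 0.0364 and 0.0963 CPM in the others. Endothelial, Kupffer cell and stellate cell markers summed to 119 to 261, 107 to 215 and 245 to 319 CPM. Lymphocyte markers summed to 4.64 to 9.004 CPM and adipocyte markers to 13.8 to 81.8 CPM. Most of the adipocyte sum was *Cidea*, at 12.5 to 78.8 CPM. The other adipocyte markers were low, with averages of 2.14 CPM for *Retn*, 0.459 for *Adipoq*, 0.248 for *Plin1* and 0.0205 for *Lep*. Which cells held the mRNA of the members was not tested.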

How the data were processed

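Livers of *db/db* mice given an AAV8 vector were profiled by RNA-seq with single reads of poly-A selected RNA. Per the labels, the authors aligned reads with STAR 2.0.4b to GRCm38 (Ensembl release 76) and took gene counts from uniquely aligned reads by featureCounts 1.4.5. The values they deposited are CPM, scaled to all reads counted on genes, and the step from counts to CPM is not described in the sources used here. The table had 15236 lines for 15126 genes, and repeated lines were read once. Dividing each value by the CPM of 1 read gave whole reads for 100% of the values (tolerance 0.05 reads). Listed genes held 97.5% to 98.3% of a library's reads, and no libraries of a group were duplicates (lowest chi-square per degree of freedom 15.9).

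Members and lists were chosen with earlier results of these data known. The comparison between the groups of the series rests on an item that is not reported here, so no test between groups is given. Levels are CPM in the 5 AAV8-Control livers, and genes averaging 1 CPM or more over all 10 livers were kept. Correlations used log2(CPM + 1) minus the group mean, and the code for them was tested on simulated data. In each list, the 3 genes with the highest mean CPM over the 10 livers were named. For likeness to *Ppl*, the 5 genes with the highest r were named, and of its neighbours the 3 nearest past the filter on each side. Positions and exon lengths came from GENCODE M21 (GRCm38), matched by identifier for 15123 genes. Alternatives were a pseudocount of 0.1, TMM scaling (edgeR 4.0.16, R 4.3.3), each library left out, and removal of each library's trend on exon length. Transcript-level values were not used here.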

Additional observations from a re-analysis of the deposited data

Results flagged for a closer look

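Among 42 genes examined in the 5 AAV8-Control livers, 2 had a liver far from the others, its gap to the nearest taking more than 0.71 of the range on log2(CPM + 1), and chance alone would mark about 1 in 20. *Pkp3*, for plakophilin 3, was at 2.82 CPM in replicate 1 and at 1.98 to 2.11 CPM in the other 4 livers (gap over range 0.825). *Vim*, for vimentin, was at 26.3 CPM in replicate 2 and at 16.9 to 18.1 CPM in the other 4 (gap over range 0.856). None of the 10 members had such a liver.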

How the results depend on the processing

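Without single control livers, the mean ratio of *Krt8* to *Krt18* per kilobase was 0.682 to 0.708 and that of *Ppl* to *Evpl* 35.7 to 49.3, while single livers ran from 0.653 to 0.758 and from 21.9 to 76.5. Of the correlations of *Ppl* with the 5 genes most like it and of the 11 pairs of members with r above 0.6 or below -0.6, none turned its sign under a pseudocount of 0.1, TMM scaling, removal of the trend on length or the omission of a liver. Under these alternatives the 16 correlations moved by 0.2 or more in 5 cases, namely to 0.673 for *Ctbp2* with *Ppl*, 0.37 for *Dsp* with *Jup* and 0.46 for *Jup* with *Pkp2* with TMM scaling, to 0.34 for *Jup* with *Pkp2* without AAV8-Control replicate 1, and to -0.56 for *Dsg2* with *Krt18* without a liver outside AAV8-Control. Without the 2 livers farthest from the median of the first gene over both groups, 4 of these 11 pairs moved by 0.2 or more. The r was then 0.58 for *Krt8* with *Krt18*, 0.13 for *Jup* with *Pkp2*, -0.62 for *Dsg2* with *Krt18* and -0.95 for *Dsc2* with *Krt18*. Some pairs with a weaker r moved more, such as *Jup* with *Krt18* from -0.13 to -0.89, *Jup* with *Krt8* from -0.09 to -0.83, *Plec* with *Krt8* from -0.19 to 0.69 and *Plec* with *Krt18* from -0.16 to 0.65, and *Jup* with *Dsg2* moved from 0.46 to 0.91. The correlations of *Ppl* with *Dsp*, *Pkp2*, *Krt18* and *Rogdi* turned their sign under TMM scaling, removal of the trend on length or the omission of a liver, of which the neighbours of *Ppl* were read with the trend removed only. The cause was not tested. The alternatives for the pairs of members, and the removal of the trend on length for all, were chosen after seeing the data. Alternatives planned for tests between groups were not run, since no such test is given. No paired analysis was possible because no test between groups is given, and the labels do not say what a replicate number shares across groups. At 9 to 25 reads, *Evpl* is limited by depth.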
